A study of Mus musculus with 4 samples.

Results

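The cells described here are Cdkn2a-positive cells of the KPC-4545 tumours with high summed Crabp1, Crabp2 and Aqp5. They were chosen by measured values: in both KPC-4545 libraries, a cell needed at least 500 unique molecular identifiers (UMIs), 250 genes and under 10% mitochondrial UMIs. It also needed at least 1 Cdkn2a UMI, at least 5 UMIs of Crabp1, Crabp2 and Aqp5 together per 10000 UMIs, under 20 UMIs of Col1a1 and Col3a1 per 10000, and 0 UMIs of Ptprc. The rule found 713 cells of 5469 past the same depth and mitochondrial limits in all 4 libraries, 704 in the KPC-4545 enriched library and 9 in the KPC-4545 whole library. Levels of the genes in the rule are therefore descriptions of the choice, not findings.

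The study compared ways to prepare single cells from pancreatic tumours for sequencing, with cancer-associated fibroblasts as its subject. KPC-4545 and KPC-3403 are tumour cell lines of the KPC type, a mouse model of pancreatic ductal adenocarcinoma. The lines were implanted orthotopically, the mice were C57BL/6J and untreated, and tumours were taken on day 13. Enriched libraries hold cells left after a sort against the surface markers CD45, CD31, EPCAM and TER119, and whole libraries hold the unsorted suspension. The groups used here were KPC-4545 enriched, KPC-4545 whole, KPC-3403 enriched and KPC-3403 whole, with 1 library each. The mice per library, their age and the alleles of each line are not given in the labels.

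Crabp1 and Crabp2 encode cytosolic proteins that bind retinoic acid, the vitamin A derivative that acts through nuclear receptors, and Crabp2 hands it on to those receptors. Aqp5 encodes a water channel of secretory epithelia such as salivary gland and airway gland. Pthlh encodes parathyroid hormone-related protein, a secreted factor that acts on bone and calcium and is made by several carcinomas. Aldh3a1 encodes an aldehyde dehydrogenase that is abundant in cornea, and Cdkn2a encodes the tumour suppressors p16Ink4a and p19Arf, whose transcripts are low in most normal adult cells. In GRCm38 (GENCODE M21), Crabp1 lies at chromosome 9, 54764748 to 54773110 (plus strand), Crabp2 at chromosome 3, 87948666 to 87953376 (plus strand), Aqp5 at chromosome 15, 99590782 to 99594829 (plus strand), and Cdkn2a at chromosome 4, 89274471 to 89294653 (minus strand).

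Promoter windows of RefSeq (GRCm38.p6, 250 bases before to 50 after a gene's start) are shown for Crabp1 and Aqp5, which the score sums with Crabp2. A window is also shown for Defb28, a beta-defensin gene that stood higher in these cells by the largest counting bound. Capitals mark GGGCGG, the GC box, on either strand. The Crabp1 window holds 5 and the Aqp5 window 3 such matches, the Defb28 window holds 0, and 35.7% of 32851 windows hold at least 1. The letters AGGTCA, a repeat unit of many nuclear receptor sites, and TGANTCA, the AP-1 site, were searched on both strands too and are in none of these windows, against 16.3% and 7.81% of all windows. No match overlapped another motif searched, and a match is a description of letters only. Pthlh and Cdkn2a also had windows, while Crabp2 and Aldh3a1 are named only.
Crabp1 (chr9:54764498-54764797, plus strand): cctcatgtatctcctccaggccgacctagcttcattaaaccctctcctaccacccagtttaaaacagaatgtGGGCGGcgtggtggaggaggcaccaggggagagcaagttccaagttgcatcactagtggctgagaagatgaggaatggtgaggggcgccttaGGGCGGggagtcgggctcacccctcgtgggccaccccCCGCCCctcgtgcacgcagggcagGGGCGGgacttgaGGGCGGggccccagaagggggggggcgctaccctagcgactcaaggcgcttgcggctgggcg
Aqp5 (chr15:99590778-99591077, plus strand): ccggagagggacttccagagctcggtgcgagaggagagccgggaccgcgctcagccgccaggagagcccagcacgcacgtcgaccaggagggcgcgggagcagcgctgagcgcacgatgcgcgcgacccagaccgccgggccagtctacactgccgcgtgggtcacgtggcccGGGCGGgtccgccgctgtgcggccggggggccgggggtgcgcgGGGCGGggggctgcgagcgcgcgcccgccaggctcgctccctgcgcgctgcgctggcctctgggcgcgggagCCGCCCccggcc
Defb28 (chr2:152518005-152518304, plus strand): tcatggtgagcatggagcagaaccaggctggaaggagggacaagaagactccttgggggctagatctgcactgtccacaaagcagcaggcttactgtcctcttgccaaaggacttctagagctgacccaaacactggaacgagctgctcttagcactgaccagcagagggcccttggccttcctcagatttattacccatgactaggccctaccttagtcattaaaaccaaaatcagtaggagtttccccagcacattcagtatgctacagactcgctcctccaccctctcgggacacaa

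Library totals ran from 5746733 to 51450719 UMIs, and cells past the limits numbered 1336, 510, 2463 and 1160 in KPC-4545 enriched, KPC-4545 whole, KPC-3403 enriched and KPC-3403 whole. Of barcodes with at least 500 UMIs, 151 occurred in both KPC-4545 enriched and KPC-3403 whole, with medians of 792 and 27701 UMIs in those libraries. Other pairs of libraries shared 6 to 22. Of the cells described here, 10 of 704 enriched and 2 of 9 whole cells carried a shared barcode, against 42 of 301 and 9 of 52 Crabp-low cells, which are the Cdkn2a-positive KPC-4545 cells under the limit of 5. The 2 whole cells had a median of 39314.5 UMIs, so the deepest whole cell, of 61303 UMIs, was 1 of them. Values without shared barcodes are given for shares, for enriched-library genes and lists and for line calls. Whole-library levels and the ratios that use them are given with shared barcodes only.

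The choice of cells can be followed step by step. In KPC-4545 enriched, 3482 barcodes had at least 500 UMIs, 2916 of them had 250 genes, 1336 were under 10% mitochondrial UMIs, 1020 held a Cdkn2a UMI, 1005 passed the collagen and Ptprc limits and 704 passed the limit on Crabp1, Crabp2 and Aqp5. In KPC-4545 whole, the same steps left 880, 547, 510, 69, 61 and 9. The cells were 52.7% of those past the limits in the enriched library (exact Clopper-Pearson 95% interval 49.98% to 55.4%) and 1.76% in the whole library (0.810% to 3.32%). Intervals here cover counting error only, and the sort removes cell types that fill the whole library, so the shares are not of the same population. Of Cdkn2a-positive cells alone, they were 70.0% (67.1% to 72.9%) in the enriched and 14.8% (6.98% to 26.2%) in the whole library. With shared barcodes left out, the shares of all cells were 58.3% and 1.41%.

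**Figure D1:**
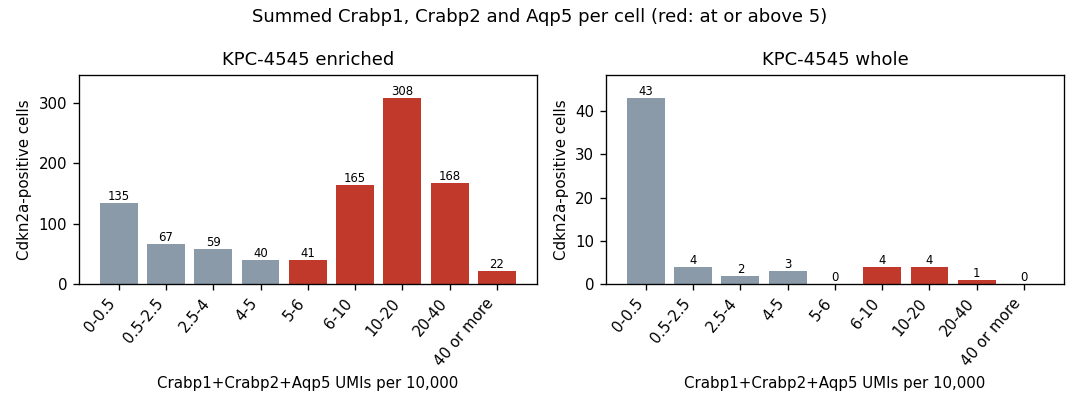
Number of Cdkn2a-positive KPC-4545 cells (y axis) by summed Crabp1, Crabp2 and Aqp5 UMIs per 10000 (x axis, bins of unequal width), with the enriched library on the left and the whole library on the right and cells at or above the limit of 5 in red. In the enriched library, 40 cells lie between 4 and 5 and 41 between 5 and 6, next to each other in number.

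Cells lay on both sides close to the limit. In the enriched library, 40 cells lay just outside it, between 4 and 5 per 10000, and 41 just inside, between 5 and 6. The cells are therefore described as a range of this score, and whether they form a separate type was not tested. At the low end, 135 enriched and 43 whole cells had a score under 0.5. Within the 704 enriched cells the score ran up to 80.0 per 10000, with a median of 14.1 and quartiles of 9.23 and 21.5. In the 9 whole cells it ran between 6.20 and 23.9, with a median of 11. Of these, 4 had under 2000 UMIs, and the cells of 1551, 1294 and 732 UMIs met the limit on 1 UMI each. Mitochondrial UMIs were absent in 4 of the 9 and in 12 of the 52 Crabp-low whole cells, with medians of 0.0645% and 1.32%.

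Crabp2 and Aqp5 carried most of the choice. Crabp2 alone reached the limit in 428 of 704 enriched cells, Aqp5 alone in 397, Crabp1 alone in 43, and in 105 cells none did so without the others. Crabp1, Crabp2 and Aqp5 each had a UMI in 232 cells. Among the 9 whole cells, Aqp5 alone reached the limit in 7 and Crabp2 alone in 2, with 1 cell in both counts, and Crabp1 had 0 UMIs in all 9.

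Depth moved with the score. The median was 33171 UMIs in Crabp-high and 8913 in Crabp-low cells of the enriched library, and 3589 against 9500.5 in the whole library. The share that met the limit, out of all Cdkn2a-positive enriched cells, was 43.4% under 2000 UMIs, 44.7% between 2000 and 10000, 59.6% between 10000 and 20000 and 83.7% above. The part of depth in the share was not tested. The 79 members under 2000 UMIs had a median of 0.202% mitochondrial UMIs, and 20 of them had none. In them Gm42418, a gene overlapping ribosomal RNA sequence, summed to 83121 CPM (UMIs of a gene scaled to a common total over the summed cells, the unit of all levels below), against 3806 in members above 20000 UMIs. Each sum below rests mostly on deep cells: 583 of the 704 had at least 10000 UMIs.

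Thinned to 2000 UMIs a cell, Crabp2 had a UMI in 66.7% of 625 Crabp-high cells (92.2% before thinning, 79 shallower cells left out) and 20.7% of 198 Crabp-low cells (44.2% before, 103 left out). In collagen-high cells of the same library, which had a median of 3475.5 UMIs, Crabp2 had a UMI in 6.52% of 46 thinned cells and in 14.3% of all 84. Aqp5 was in 66.2% of Crabp-high, 21.7% of Crabp-low and 2.17% of collagen-high thinned cells. In 278 Ptprc-positive cells of the whole library, with a median of 3711.5 UMIs, all 3 genes had 0 UMIs. Barcodes of at most 100 UMIs, which hold free RNA, carried 275 Crabp2 and 303 Aqp5 CPM in the enriched library, so free RNA of both genes was present at a level above that of Crabp-low cells.

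The label of tumour-like cells was checked against markers. Keratin 8, keratin 18 and vimentin transcripts were all abundant, at 664, 1191 and 6654 CPM in Crabp-high enriched cells and 714, 1008 and 2881 in Crabp-high whole cells. Epcam, the epithelial adhesion molecule on which the sort selected against, had 4 UMIs in 4 of 704 enriched cells and 0 in the 9 whole cells. Pecam1, the endothelial CD31, had 4 UMIs and Hbb-bs, an adult beta-globin, 1 UMI in the enriched cells. In the whole cells Hbb-bs had 14 UMIs over 8 of the 9.

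Markers of other cell types were low in the enriched cells. The 13 fibroblast markers without Col1a1 and Col3a1 summed to 35.6 CPM, against 112 in Crabp-low cells. Lymphoid markers summed to 3.28 and myeloid markers to 6.13, and of the lymphoid list Cd3e, Ms4a1, Nkg7 and Klrb1c were at 0. The mesothelial list summed to 503, of which mesothelin (Msln) alone had 502, while Upk3b, Upk1b, Lrrn4 and Wt1 were each under 1 and Calb2 was at 0. In the 9 whole cells, erythroid markers summed to 143, against 5754 in Crabp-low whole cells. Both collagens that the rule caps were present, with Col3a1 at 59.6 CPM and Col1a1 at 26.3 CPM in Crabp-high enriched cells, against 150 and 43.3 in Crabp-low cells. With them the fibroblast list summed to 121 and 305. In the whole cells, with 119040 UMIs in all, the fibroblast markers summed to 67.2, against 4.24 in Crabp-low whole cells.

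**Figure D2:**
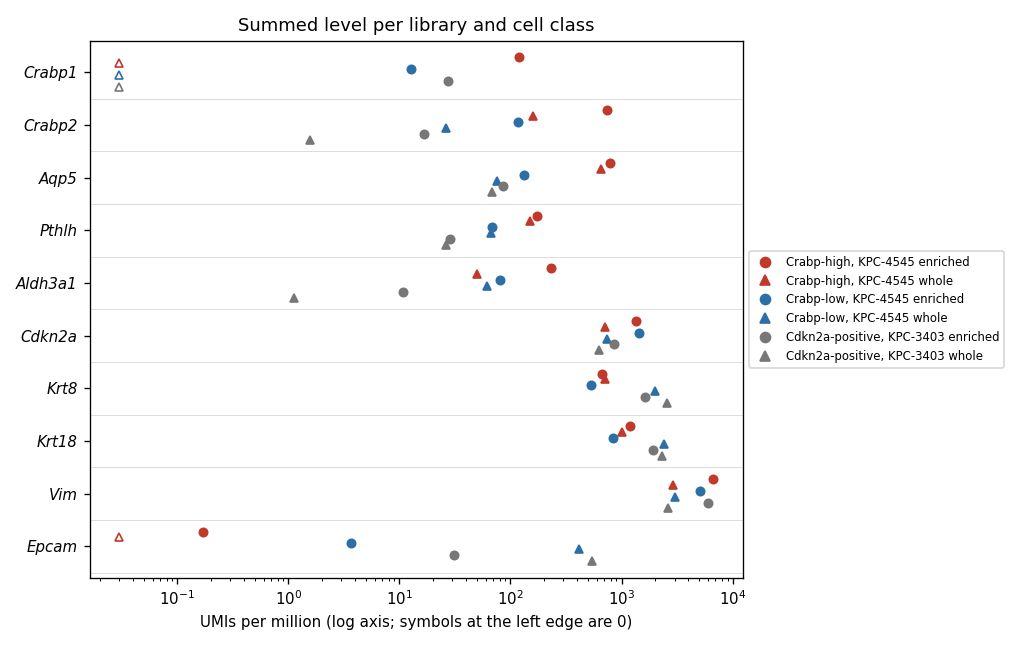
Summed level of the rule genes, markers and Epcam (x axis, CPM, log axis, 0 at the left edge) in Crabp-high and Crabp-low KPC-4545 cells and in Cdkn2a-positive KPC-3403 cells, circles for enriched and triangles for whole libraries, 1 point per library. Pthlh stood at 175 and 151 in Crabp-high cells, above the other 4 points.

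The levels of the marker genes are given per library. Crabp1 had 120 CPM in enriched and 0 in whole Crabp-high cells, against 12.8 and 0 in Crabp-low cells. Crabp2 had 736 and 160, against 118 and 26.5. Aqp5 had 786 and 647, against 132 and 76.2. These 3 differ because the rule set them apart. Cdkn2a, which both classes had to carry, was at 1342 and 706 in Crabp-high and at 1447 and 743 in Crabp-low cells.

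Pthlh and Aldh3a1 were not used by the rule but were proposed as markers from these data. Pthlh was at 175 (enriched) and 151 (whole) CPM in Crabp-high cells, against 68.8 and 66.7 in Crabp-low cells. The log2 ratio was 1.34 (counting interval 1.18 to 1.51) in the enriched library and 1.21 (0.34 to 1.95) in the whole library. The whole values rest on 18 and 63 UMIs, with 55.6% of each in 1 cell, and thinned to 2000 UMIs Pthlh was in 0 of 5 Crabp-high and 4 of 46 Crabp-low whole cells. Aldh3a1 was at 231 and 50.4, against 79.7 and 61.4, so the order held in the enriched library only, where it was 1.53 higher on the log2 scale (counting interval 1.38 to 1.69). In the whole library the Aldh3a1 values rested on 6 and 58 UMIs, with a log2 ratio of -0.18 (-1.79 to 0.92). Crabp1 was at 129 CPM over the 84 collagen-high cells of the enriched library, from 77 UMIs in 10 of them, while 245 of the 704 Crabp-high cells held a UMI.

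Crabp-high cells were set against Crabp-low cells of the same line, first in the enriched library. With 1 library there is no test: values are ratios of summed UMIs with 0.5 UMIs added, intervals are exact for counting error, and named genes are those whose interval stays farthest from no difference. A 2-fold difference was passed by 1.43% of 10971 genes with at least 50 UMIs as higher and by 7.16% as lower. Outside the rule, the genes farthest above were Defb28, Blnk, Lypd2, Ifitm6, Tigit, Igfbp6 and Cd7. Those farthest below were Dmbt1, Lgals4, Ctse, Anxa10, Fxyd3, Fermt1, Trf, Tff2, Bpifb1 and Lad1.

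Defb28 had 1614 UMIs in 152 of 704 Crabp-high cells (68.7 CPM), against 26 UMIs in 7 of 301 Crabp-low cells (5.63 CPM). Its log2 ratio was 3.58 (3.05 to 4.23), and 19 of the 26 UMIs came from 1 Crabp-low cell. Tigit, known as an inhibitory receptor of T and NK cells, had 36.6 CPM in Crabp-high and 6.28 in Crabp-low cells, with a UMI in 216 of 704 and 15 of 301. Blnk, an adaptor of B cell receptor signalling, had 24.3 and 3.25, and Cd7, a surface protein of T cells, 10.2 and 1.08. These leukocyte genes stood in cells without Ptprc by rule and with lymphoid markers at 3.28 CPM in sum.

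Igfbp6, which binds insulin-like growth factor II, had 18.3 CPM in Crabp-high and 2.60 in Crabp-low cells. Ifitm6, of the interferon-induced transmembrane family, had 18.9 and 2.60, and Lypd2, of the Ly6 family, 12.1 and 1.30. In the whole library, Defb28, Blnk, Ifitm6, Tigit and Igfbp6 had 0 UMIs in the 9 Crabp-high cells, against 0, 8, 2, 13 and 5 UMIs in the 52 Crabp-low cells. Lypd2 had 5 UMIs there, against 2 in 52 Crabp-low cells, and Cd7 had 3 against 0.

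**Figure D3:**
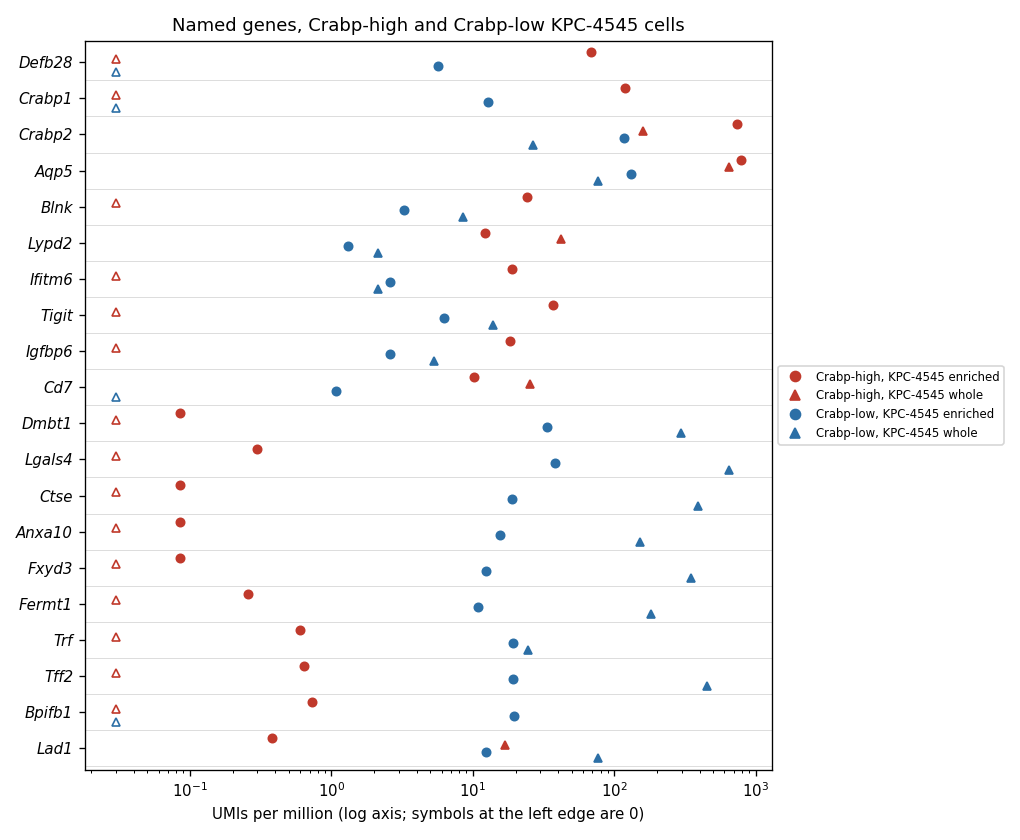
Summed level (x axis, CPM, log axis, 0 at the left edge) of the 10 genes farthest above and the 10 farthest below in Crabp-high against Crabp-low KPC-4545 cells, circles for the enriched and triangles for the whole library, 1 point per library. Crabp1, Crabp2 and Aqp5 are rule genes, and Dmbt1 is at 0.0851 in Crabp-high against 33.3 in Crabp-low enriched cells.

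Several of the lower genes are known from mucosal epithelium. Dmbt1, a secreted scavenger receptor glycoprotein, had 2 UMIs in Crabp-high cells (0.0851 CPM), against 154 in Crabp-low cells (33.3 CPM). Lgals4, a galectin of the gut, had 7 against 176 UMIs, and Ctse, the gastric protease cathepsin E, 2 against 87. Few cells carried them: Dmbt1 was in 14 of 301 Crabp-low cells with 79.2% of its UMIs in 1, and all 90 Crabp-low Bpifb1 UMIs came from 1 cell. Without the 1 Crabp-low cell richest in each gene, the Crabp-low level was 6.97 CPM for Dmbt1, 24.1 for Lgals4, 9.80 for Ctse and 0 for Bpifb1, against 0.723 for Bpifb1 in Crabp-high cells. With shared barcodes left out, Dmbt1 was at 28.7 and Tff2, the trefoil factor of gastric mucus, at 10.7 in Crabp-low cells. In the whole library, Dmbt1, Lgals4, Ctse and Tff2 had 0 UMIs in the 9 Crabp-high cells, against 278, 614, 370 and 429 in Crabp-low cells.

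A 2-fold difference in the whole library was passed by 7.63% of 2596 genes as higher and by 10.0% as lower. That comparison mixes in another difference: of Cdkn2a-positive whole cells with at least 2000 UMIs, 16 carried an Epcam UMI and none of these was Crabp-high, while 5 of 35 without one were. The Epcam-positive cells were at 3143 Krt8 and 1337 Vim CPM, and those without Epcam at 1022 and 4151. Its part in the whole values was not tested.

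Pathway lists were then read in the enriched library, leaving out rule genes. Over all 10971 genes the median log2 ratio was -0.18, and 1.43% were past 2-fold as higher and 7.16% as lower. The S100 calcium-binding genes had a median of 0.36, with 8 of 9 above 0. S100a6 had 15545 CPM in Crabp-high and 8736 in Crabp-low cells, and S100a4, also a gene of the mesenchymal list, 1464 and 676. S100a6 was the most abundant transcript of the cells that is neither ribosomal nor mitochondrial, and S100a4 was the 1 of 9 past 2-fold. In the whole library the list had the opposite order, with 1 of 8 above 0 and a median of -0.54 where all genes had 0.10, and S100a6 was at 14214 and 21599.

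Cell cycle genes had a median of 0.31, with 21 of 22 above 0 and 1 past 2-fold (Ccnb2, a mitotic cyclin, at 1.17). Mki67 had 74.4 CPM in Crabp-high and 62.4 in Crabp-low cells, and Top2a 76.0 and 75.6. Thinned to 2000 UMIs, Mki67 was in 10.2% of Crabp-high and 12.1% of Crabp-low cells and Top2a in 9.60% and 13.6%, with intervals that overlap. At 2000 UMIs a cell, at least 3 UMIs of the list were in 32.6% of Crabp-high cells (29.0% to 36.5%) and 24.2% of Crabp-low cells (18.4% to 30.8%), intervals that overlap. Heat shock genes had a median of 0.27 with 0 of 13 past 2-fold. In the whole library, 6 of 13 cell cycle genes lay above 0, with a median of -0.12 where all genes had 0.10. There 5 were 2-fold higher and 3 lower, against 7.63% and 10.0% of all genes.

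Of the retinoid list, none of the 15 measured genes outside the rule was 2-fold higher and 1 was 2-fold lower, with a median of -0.16. Over all genes 1.43% were higher and 7.16% lower, so the retinoid counts are near the general share. Rdh10, which makes retinal from retinol, had 98.4 CPM in Crabp-high and 171 in Crabp-low cells. The retinoic acid receptors Rara and Rarg were at 34.2 and 37.9, against 48.3 and 40.3, and the retinoic acid hydroxylase Cyp26a1 at 10.0 against 5.63. The retinoic acid-forming enzymes Aldh1a1, Aldh1a2 and Aldh1a3 were each under 1 CPM in Crabp-high enriched cells, while Aldh1a1 and Aldh1a3 had 42.0 and 58.8 in the 9 whole cells, from 5 and 7 UMIs. Aquaporins other than Aqp5 were low: Aqp1 was at 18.9, against 25.3, and Aqp3 at 1.53, against 0.433. Of the 12 measured genes of the aquaporin and ion transport list, 0 were 2-fold higher and 3 were 2-fold lower.

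Aldehyde and oxidant defence genes had a median of 0.23, with 2 higher and 2 lower past 2-fold of 17 (1.43% and 7.16% of all genes). Whole cells had 1 of 12 above 0, with a median of -0.55 where all genes had 0.10. Besides Aldh3a1, Aldh3b1 was at 10.1 in Crabp-high and 4.76 in Crabp-low cells, while the haem oxygenase Hmox1 was at 83.2 and 174. Prdx1, a peroxiredoxin, led the list with 1381 and 1001. In the PTHrP and calcitonin list, Pthlh was the 1 of 6 past 2-fold as higher and 2 were 2-fold lower (Ramp3 and Adm2), and its receptor gene Pth1r had 0 UMIs in both classes. Of the list around Cdkn2a, Ccnd1, the G1 cyclin, had 672 and 373, and Cdkn1a, the p53 target p21, had 12.7 and 40.3.

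**Figure D4:**
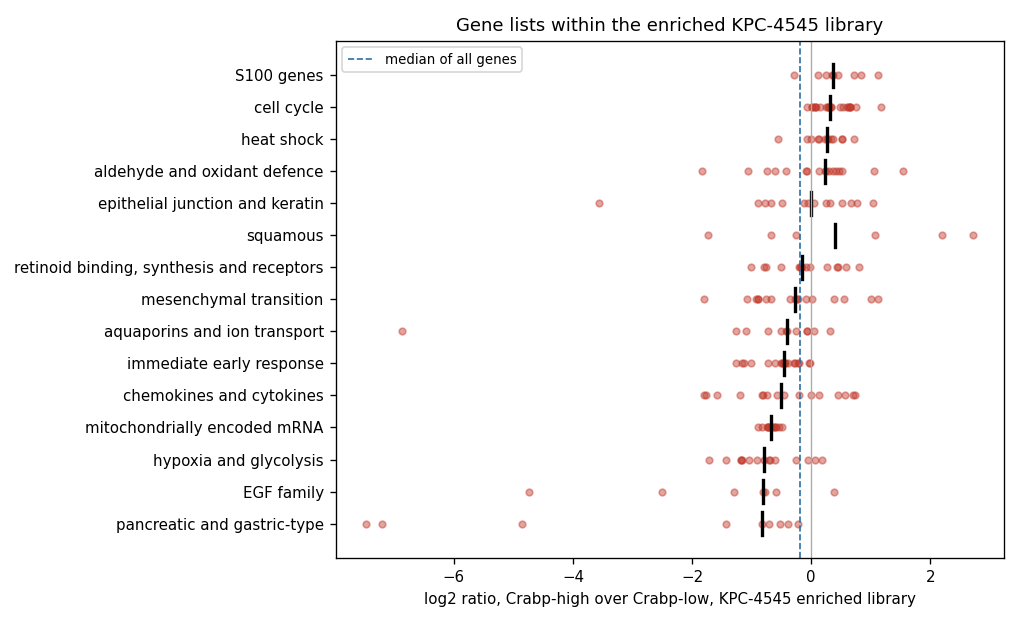
Log2 ratio of summed UMIs, Crabp-high over Crabp-low cells of the KPC-4545 enriched library (x axis), for each gene with at least 50 UMIs in 15 gene lists (rows), with list medians as black bars and the median of all genes as a dashed line. All 13 mitochondrially encoded mRNAs and all 19 immediate early genes lie below 0, and 21 of 22 cell cycle genes lie above.

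Lists that lay low in Crabp-high enriched cells were the mitochondrially encoded mRNAs, the immediate early genes, the hypoxia and glycolysis genes and the pancreatic and gastric-type genes. All 13 mitochondrial mRNAs were below 0 (median -0.68), as were all 13 in cells of at least 10000 UMIs (median -0.58), and the rule itself caps mitochondrial UMIs at 10%. All 19 immediate early genes were below 0, with a median of -0.45 and 4 past 2-fold, where 7.16% of all genes were 2-fold lower. Fosb had 248 CPM in Crabp-high and 556 in Crabp-low cells, and Egr1 1048 and 1723. In the whole library 14 of 17 lay above 0.

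Hypoxia and glycolysis genes had a median of -0.79, and 6 of 15 were 2-fold lower, against 7.16% of all genes. Whole cells had 7 of 12 above 0, with a median of 0.02 and 1 that was 2-fold lower. Ndrg1, a stress-response gene raised by low oxygen, had 57.2 CPM in Crabp-high and 189 in Crabp-low cells, Slc2a1, the glucose transporter GLUT1, 54.7 and 124, and Vegfa 18.2 and 49.1. Pkm and Ldha, the most abundant of the list, differed less, at 2096 and 1328, against 1838 and 1270. All 9 measured pancreatic and gastric-type genes were below 0. Sox9, a ductal transcription factor, had 71.8 and 192, and Spp1, which encodes osteopontin, 4985 and 7130. Of the EGF family, 3 of 7 were 2-fold lower, among them Egfr at 28.1 and 69.3.

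Of 6 measured squamous genes 3 lay above 0, with 3 higher and 1 lower past 2-fold (1.43% and 7.16% of all genes). Krt6a and Krt14 were higher, at 107 and 16.4 CPM in Crabp-high enriched cells, against 23.2 and 2.38 in Crabp-low cells. Sprr1a, a cornified envelope gene, was lower, at 154 and 509. In the whole library Krt6a and Krt14 had 0 UMIs in Crabp-high cells, against 37 and 29 in Crabp-low cells. Of these, 24 and 23 were in 1 cell. In the enriched library, keratins 7, 8, 18 and 20 were at 1422, 664, 1191 and 52.1, against 830, 532, 831 and 25.3. Of their list of epithelial junction and keratin genes, 7 of 14 lay above 0 there, with 1 higher and 1 lower past 2-fold. In the whole library 13 of 15 were 2-fold lower and 0 higher (10.0% and 7.63% of all genes), with a median of -2.23. Krt8 was at 714 and 2000 there. Of 17 measured mesenchymal genes in the enriched library, 5 lay above 0, with 2 higher and 2 lower past 2-fold (1.43% and 7.16% of all genes). Twist1 was at 3.74 and 13.0, and Fn1, fibronectin, at 705 and 1489. The 2 most abundant went the other way, with Vim at 6654 and 5085 and Lgals1 at 4991 and 3407. In cells of at least 10000 UMIs, and with shared barcodes left out, the median of every list named above kept its sign.

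Genes that varied with the score across single cells were named from 823 Cdkn2a-positive enriched cells thinned to 2000 UMIs. The 10 with the highest Pearson r were S100a6 (0.39), S100a4 (0.38), Ifitm3 (0.35), Mgp (0.32), Wfdc2 (0.32), Ppia (0.31), S100a10 (0.26), Fth1 (0.25), Rplp1 (0.25) and Rps4x (0.25). Over 2649 genes in at least 10% of these cells, the median r was 0.016 and the value at the upper 5% was 0.14. These cells share 1 library, and the values are a description. Mgp, which encodes matrix Gla protein, had 2162 CPM in Crabp-high and 602 in Crabp-low enriched cells, and 865 against 92.1 in the whole library. Wfdc2, a secreted whey acidic protein family member, had 1898 and 672 in the enriched library, and 941 and 1458 in the whole library. Between the rule genes r was 0.19 for Crabp2 and Aqp5, 0.031 for Crabp1 and Crabp2 and 0.056 for Crabp1 and Aqp5. In 729 cells of at least 10000 UMIs the same pairs had r of 0.30, 0.15 and 0.14.

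Within the Crabp-high cells, 583 with at least 10000 UMIs were thinned to 10000 to see how they varied among themselves. By variance over mean, the most variable were Malat1, Gm42418, Spp1, Mgp and Cryab, which encodes a small heat shock protein. Spp1 had a median of 34 UMIs a cell with outer decile bounds of 12 and 105.8, and Mgp a median of 5 with bounds of 0 and 63. One cell held 829 of the 3311 Cryab UMIs. The first principal component, 18.0% of variance, set ribosomal protein genes against Fosb, Neat1, Malat1, Junb and Klf6, and its absolute correlation with log UMIs was 0.66. The second, 9.65%, set Cdkn2a and Itm2b against Mki67, Top2a, Ccna2, Krt7 and Krt8. The fourth, 2.99%, held Aqp5 together with Mgp, Ifitm3, Ly6a and S100a4.

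Enriched Crabp-high cells were next set against whole Crabp-high cells, to ask what moved with the preparation. With 704 against 9 cells and 1 library each there is no test. A 2-fold difference was passed by 15.1% of 10653 genes as higher and 18.8% as lower in the enriched cells, and counting intervals lay wholly past 2-fold for 0.713% and 1.08%. The whole sum was 119040 UMIs, of which 61303 came from 1 cell, whose barcode also occurred in another library. Of the 10 genes named as farthest below in enriched cells, all but Ifi27l2a had most of their whole-cell UMIs in that cell, among them Sprr1a with 1095 of 1123. Sprr1a was at 154 CPM in enriched and 9434 in whole cells, and at 485 in whole cells without that one. Sprr2k was at 20.7 and 1789, and at 69.3 without it. Prl2c2 was at 8.34 and 546, and at 0 without it.

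Without that cell, Dynap was also at 0 in whole cells, against 2.38 in enriched cells. For the next 5 genes the whole value without it stayed above that of enriched cells, on 1 to 5 UMIs: Sprr1b was at 0.979 in enriched cells and 17.3 in whole cells without it, Slurp1 at 16.9 and 52.0, Acan at 5.02 and 34.6, Bcl2l15 at 2.47 and 17.3, and Ly6c1 at 68.8 and 86.6. Ifi27l2a, an interferon-induced gene, had no UMI in that cell and was at 5.11 in enriched cells and 208 in whole cells without it. Concentration in 1 cell was looked at for the named genes only.

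The genes farthest above in the enriched cells were Cxcl1, Ccl2, Cxcl2, Ccn1, Vcam1, Zfp36, Hspa5, Igfbp7, Ddit4 and Dnajb1, and chemokine genes were prominent among them. Cxcl1, a neutrophil-attracting chemokine, had 38150 UMIs in enriched cells (1623 CPM), against 2 in whole cells (16.8 CPM). It was in 537 of 704 against 1 of 9 cells, without thinning and at median depths of 33171 and 3589 UMIs. Ccl2, a monocyte-attracting chemokine, had 20277 UMIs (863 CPM), against 1 (8.40 CPM). Cxcl2 was at 321 CPM, against 0 UMIs, and Vcam1, an adhesion receptor for leukocytes, at 345 and 8.40. Of the chemokine and cytokine list, 12 of 16 were 2-fold higher and 2 lower, against 15.1% and 18.8% of all genes. The list had a median log2 ratio of 2.17 where all genes had -0.13. Crabp-low cells had the same order with a smaller difference, at 2232 CPM enriched and 417 whole for Cxcl1 and 583 and 85.8 for Ccl2.

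Stress genes went the same way. Of 19 immediate early genes, 12 were 2-fold higher in enriched cells and 0 lower (15.1% and 18.8% of all genes), with a median of 1.17. Zfp36, which encodes an mRNA-destabilising protein, was at 1386 CPM in enriched and 118 in whole cells, and at 69.3 in whole cells without the deepest one. Dnajb1, a heat shock cochaperone, was at 1605 and 176, and at 312 without it. Hspa5, the endoplasmic reticulum chaperone, was at 1384 and 126, and Ccn1, an immediate early matrix protein, at 794 and 42.0. The sort and the library cannot be told apart here.

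Finally, Crabp-high KPC-4545 cells were compared with Cdkn2a-positive KPC-3403 cells, by edgeR's quasi-likelihood test on summed UMIs of 4 libraries. The KPC-3403 cells had to meet the same rule except for the limit on Crabp1, Crabp2 and Aqp5, and numbered 635 in the enriched and 257 in the whole library. Of these, 32 and 7 met the whole rule. Each line has 1 enriched and 1 whole library as its 2 samples, which no label says are separate mice, so the spread is between preparations as well, and the line and its tumour cannot be told apart. The KPC-4545 whole sum is the 9 cells above. At an adjusted p under 0.05, 1.20% of 11991 genes were higher in the KPC-4545 cells and 7.93% lower.

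These calls rest on the enriched KPC-4545 library and on the choice of cells. With all Cdkn2a-positive KPC-4545 cells in place of the Crabp-high ones, edgeR called 0 genes, with 1357 at an unadjusted p under 0.05. Without the KPC-4545 enriched library it also called 0, with 1565 at an unadjusted p under 0.05. DESeq2 on the main sums called 462. Without the KPC-4545 whole library edgeR called 391, and without the KPC-3403 whole library 1848. Of the 1095 main calls, 958 were also called in the same direction with shared barcodes left out, and 1054 without the deepest whole cell.

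The genes lower in Crabp-high KPC-4545 cells included several epithelial genes of the stomach and intestine. Dmbt1 had 0.0851 and 0 CPM in Crabp-high KPC-4545 enriched and whole cells, against 474 and 1162 in KPC-3403 cells. Lgals4 had 0.298 and 0, against 503 and 1603. Crabp-low KPC-4545 cells were at 33.3 and 294 for Dmbt1 and at 38.1 and 650 for Lgals4. The calls are for the Crabp-high cells only. Spink4, a protease inhibitor of goblet cells, had 0 UMIs in the Crabp-high cells of both KPC-4545 libraries, against 117 and 351 CPM in KPC-3403 cells. At a floor of 3 UMIs per library, Spink4 was at least 914-fold lower in the enriched pair and at least 13.9-fold lower in the whole pair. Vil1, the brush border protein villin, Prom1, which encodes CD133, Ugt2b34, a glucuronosyltransferase, Ppp1r1b, Grb7 and Tm4sf20 also had 0 UMIs in those Crabp-high cells. Their levels in the KPC-3403 cells were 18.0 to 143 CPM. Reg3g, an antibacterial lectin, had 2 and 0 UMIs, against 958 and 2043. The adjusted p of these 10 lay between 0.000102 for Dmbt1 and 0.0429 for Reg3g. The naming rule asked for values without overlap between the lines, so that order is not a finding.

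Higher in the Crabp-high KPC-4545 cells were Gm42031, Amigo2, Lsp1, Gm4316, Klhdc8a, Pdgfrl, Mt3, Ttll5, Rgl1 and Pitx1. Gm42031, a long noncoding RNA on chromosome 8, had 74.8 and 101 CPM in KPC-4545 enriched and whole cells, against 1.47 and 0.898 in KPC-3403 cells. Its log2 difference was 5.81 ± 0.49 (SE), with an adjusted p of 0.000141. Mt3, a metallothionein, had 73.9 and 58.8, against 8.03 and 4.72, with a difference of 3.19 ± 0.44 and an adjusted p of 0.00222. Pitx1, a homeobox transcription factor of hindlimb and pituitary, had 86.7 and 50.4, against 10.7 and 4.94, with a difference of 3.01 ± 0.49 and an adjusted p of 0.00445. For Amigo2, Lsp1, Gm4316, Klhdc8a, Pdgfrl and Rgl1 the KPC-4545 whole value rested on 1 to 3 UMIs. Of the 10 higher and 10 lower genes, 8 lost the call without the KPC-4545 whole library.

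**Figure D5:**
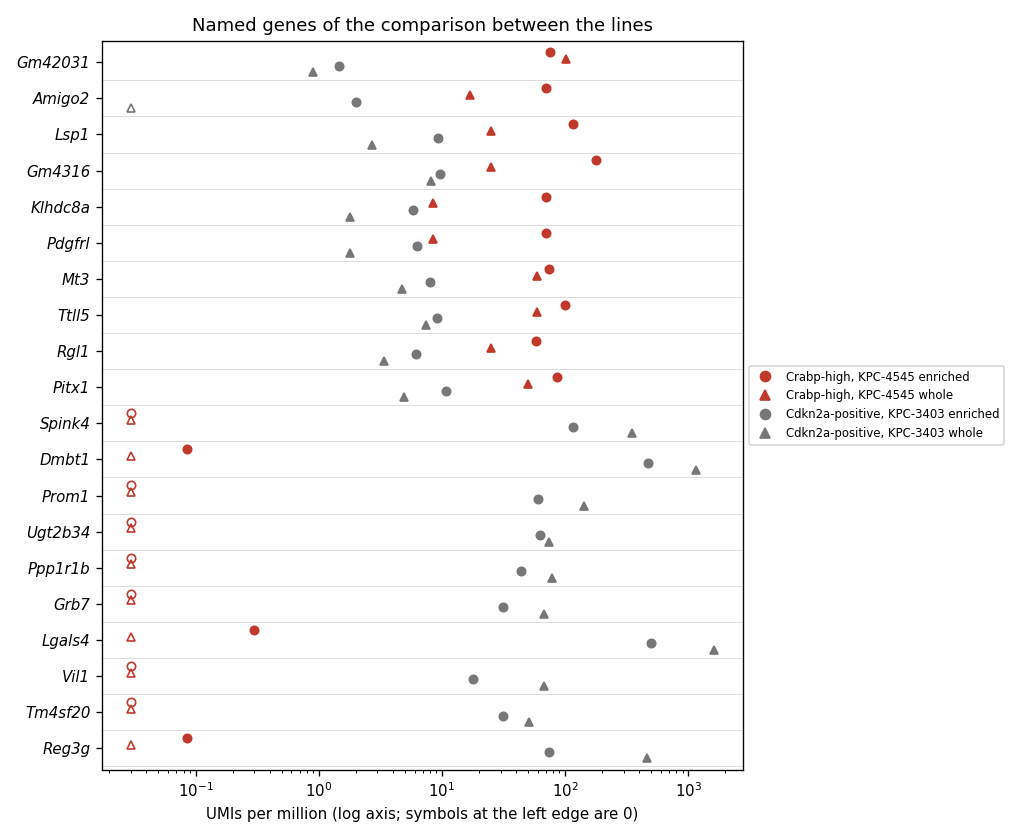
Summed level (x axis, CPM, log axis, 0 at the left edge) of the 10 genes with the largest called difference in each direction, in Crabp-high KPC-4545 cells and in Cdkn2a-positive KPC-3403 cells, circles for enriched and triangles for whole libraries, 1 point per library. Gm42031 stands at 74.8 and 101 against 1.47 and 0.898, and Spink4 is at 0 in the Crabp-high cells of both KPC-4545 libraries.

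Of the marker genes not in the rule, Pthlh had 175 and 151 CPM in Crabp-high KPC-4545 cells, against 28.6 and 26.3 in KPC-3403 cells. Its log2 difference was 2.36 ± 0.35 with an adjusted p of 0.00312. Aldh3a1 had 231 and 50.4, against 10.7 and 1.12, but its difference of 4.45 ± 1.37 missed the threshold, with an adjusted p of 0.200. Both genes were proposed from these data, so the test is no independent support.

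Of all 11991 genes tested between the lines, 1.20% were called higher and 7.93% lower in Crabp-high KPC-4545 cells. By list, 11 of 16 pancreatic and gastric-type genes were lower and 0 higher, among them Ctse, Tff1, Tff2, Hnf4a and Sox9. Their median was -6.51 where all genes had -0.13. Many of these have 0 UMIs in the Crabp-high cells of a KPC-4545 library, so that median is no bound on a fold. Crabp-low KPC-4545 cells held 87 Ctse UMIs in 8 of 301 enriched cells and 370 in 20 of 52 whole cells. Of 22 epithelial junction and keratin genes, 8 were lower and 0 higher. Krt8 had 664 and 714 CPM, against 1617 and 2578, and Krt18 had 1191 and 1008, against 1914 and 2330. All Cdkn2a-positive KPC-4545 cells were at 642 and 1856 for Krt8 and at 1132 and 2253 for Krt18. Of 15 hypoxia and glycolysis genes 6 were lower, and of 18 retinoid genes 4 were lower, among them Fabp5 and Dhrs3, and 0 higher. None of 22 cell cycle genes and none of 9 S100 genes passed. With the shares over all genes this low, that is no result about these lists. Epcam, whose level the sort sets in enriched libraries, had 0.170 and 0, against 31.0 and 541. Over all Cdkn2a-positive KPC-4545 cells Epcam was at 0.747 and 368.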

How the data were processed

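Single-cell libraries of the 10x 5' R2 chemistry were made from 4 samples, 1 each of KPC-4545 and KPC-3403 tumours, enriched and whole. The authors deposited unfiltered matrices of UMI counts per gene and barcode. They were made with Cell Ranger 6.1.1 and mm10 per the submitters' processing notes, while the file headers name Cell Ranger 4. The unfiltered barcodes hold empty droplets, so cells were taken by the limits given at the opening. Doublets were scored with Scrublet (scanpy 1.11.5), which marked 10 of the 704 enriched cells, and were left out as an alternative. Precision follows depth, with 23504700 UMIs summed over the enriched and 119040 over the whole Crabp-high cells.

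UMI counts were summed per library and class. The line comparison used edgeR 4.0.16 (quasi-likelihood, TMM, filterByExpr, robust, Benjamini-Hochberg, R 4.3.3), with DESeq2 1.42.0 as an alternative. Its design asked for at least 10 cells per library, but KPC-4545 whole has 9. The minimum was dropped after that was seen. Comparisons of 1 library with 1 used ratios with 0.5 UMIs added to each sum, genes with at least 50 UMIs over both classes, exact conditional binomial intervals and a 2-fold limit. Cells were thinned with seed 1. A simulated check of the fit drew all libraries from 1 mean profile without a difference between preparations, so it does not measure how the fit does on these data.

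The cells, markers, gene lists and tests were chosen with earlier results of these data known. Named genes are the markers and sort antigens, the 10 per direction in each comparison (for the lines, the largest called differences without overlap among genes averaging 20 CPM or more; otherwise the counting bound farthest from 0), and of each list up to 4 members past the limit and the 2 most abundant. Egr1, Mki67, Top2a, Rara, Rarg, Cyp26a1, the Aldh1a genes, Aqp1, Aqp3, Pth1r and Krt8, among others, were named after their values were seen. Alternatives were other cell limits, scalings, filters, a preparation term and leaving out each library. Barcodes found in several libraries, cells under 10000 UMIs and the deepest whole cell were left out in alternatives added after seeing the data.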

Additional observations from a re-analysis of the deposited data

Results flagged for a closer look

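For 12 genes, Crabp-high cells stood on opposite sides of Crabp-low cells in the 2 KPC-4545 libraries, with counting intervals on opposite sides of 0. The difference was not tested, since each library is 1 sample, and it sets 704 and 301 cells of the enriched library beside 9 and 52 of the whole library. Of the 52 Crabp-low whole cells, 18 held an Epcam UMI, against 9 of the 301 Crabp-low enriched cells. Log2 ratios below are Crabp-high over Crabp-low.

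Krt6a was at 2.20 in the enriched and -3.24 in the whole library, where 0 UMIs stood against 37, with 24 of these in 1 Crabp-low cell. Krt18 was at 0.52 and -1.25, and Krt7 at 0.78 and -0.24. S100a6 was at 0.83 and -0.60, and S100a10 at 0.44 and -0.38. Ccl2 was at 0.56 and -2.78, from 1 and 81 UMIs in the whole library with 37 of the 81 in 1 cell. Ube2c, a ubiquitin-conjugating enzyme of mitosis, was at 0.53 and -1.62, and Hsp90ab1 at 0.23 and -0.16. The opposite order was seen for Sprr1a, at -1.72 in the enriched and 4.10 in the whole library, where 1095 of 1123 UMIs came from 1 cell. Fos was at -0.38 and 0.63, B2m, the light chain of MHC class I, at -0.17 and 0.69, and Timp2, a metalloproteinase inhibitor, at -0.25 and 0.55.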

How the results depend on the processing

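Line comparison, 1095 genes called by edgeR: DESeq2 called 462, a fit with preparation as a term 1990, and all Cdkn2a-positive KPC-4545 cells gave 0 (1357 at an unadjusted p under 0.05). Leaving out 1 library gave 0 to 1848 calls, where an arm of 1 library is assumed to vary like the other. With no filter on low counts the split was 267 higher and 818 lower, against 144 and 951, and without the KPC-3403 enriched library it was 399 and 1065, and without the KPC-3403 whole library 438 and 1410. The other 7 settings gave 996 to 1490 calls, most of them lower. For named genes, 245 values kept direction and side of the threshold and 55 lost the call. Crabp-high against Crabp-low cells, 943 genes past 2-fold: 529 under 5% mitochondrial UMIs, 426 at a score limit of 10, and 1689 by the mean of per-cell values. Enriched against whole Crabp-high cells, 3610 genes past 2-fold: 7264 by the mean of per-cell values, and Slurp1 changed sign, with 0.093 in place of -5.50, at a score limit of 10. The share of enriched cells, 52.7%, was 55.5% under 5% and 44.1% under 20% mitochondrial UMIs, 67.0% at 1000 UMIs and 500 genes, 37.3% at a score limit of 10, 49.3% at 2 Cdkn2a UMIs, 58.3% without shared barcodes and 77.1% at 10000 UMIs, where the whole share was 4.76% in place of 1.76%. The cause of these shifts was not tested. No paired analysis was possible by replicate number because each group has 1 library, while the fit with preparation as a term matches the lines by preparation. With 9 whole cells, a gene under 25.2 CPM there is within the floor of 3 UMIs, and each group's single library leaves no spread between mice.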
